A study of Mus musculus with 55 samples.

Results

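The genes described here are the nuclear-encoded genes of oxidative phosphorylation in single mouse oocytes. They were taken by symbol from the gene count tables: every gene with an Nduf letter-and-number symbol (Nduf followed by a, b, c, s or v), every Uqcr gene, the Cox4 to Cox8 genes followed by a, b or c, every Atp5 gene and Sdha to Sdhd, without pseudogene symbols ending in -ps. The rule gave 82 of the 51734 genes in the tables, of which 37 carry complex I symbols, 4 complex II, 8 complex III, 16 complex IV and 17 complex V. It leaves out some subunits with other symbols, such as Cox4i1, Cox4i2, Cyc1 and Ndufab1, and it takes in Atp5s and Atp5sl, which are not structural subunits of ATP synthase, and Ndufa4, which is now placed in complex IV.

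The study compared single-oocyte RNA-seq libraries of mice with substituted ADD domains, the histone-reading domains of the DNA methyltransferase DNMT3A and its cofactor DNMT3L. Fully grown oocytes (FGOs), which are arrested in prophase of the first meiotic division, came from ovaries of females 10 to 12 weeks old, and MII oocytes, arrested in metaphase of the second division, came from oviducts after superovulation. The groups were 18 wild-type FGOs, 8 Dnmt3L-ADD FGOs (Dnmt3a+/+, Dnmt3L D124A/D124A), 8 Dnmt3a-ADD FGOs (Dnmt3a ADA/ADA, Dnmt3L+/+), 8 double-ADD FGOs (homozygous for both altered alleles) and 10 wild-type MII oocytes, for which the labels give no age. The alleles were made by CRISPR/Cas9 in zygotes of a mixed strain background and passed on by breeding. They are therefore carried by every cell of the animal, not by the oocyte alone, and the lines were backcrossed to C57BL/6J. FGOs were freed by puncturing ovaries, and the surrounding cumulus cells were washed off.

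Oxidative phosphorylation is carried out in the inner mitochondrial membrane, where complexes I and II pass electrons from NADH and succinate to ubiquinone, complexes III and IV carry them on to oxygen, and complex V, the ATP synthase, uses the resulting proton gradient to make ATP. The core of complexes I, III, IV and V is partly encoded by the mitochondrial genome, while the genes described here are transcribed in the nucleus and their proteins imported. The oocyte relies on mitochondrial ATP during growth and meiotic maturation, and it matures to MII without transcription, on RNA stored during growth.

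Total counts per library ran from 7832458 to 23739871. The libraries fall into a pair of technical classes by the share of reads mapped in the study's read summary, under 80% and at least 80%. Of the wild-type FGOs, 8 were under 80% and 10 at least 80%, all 8 double-ADD libraries were under, all 8 Dnmt3L-ADD libraries were at least 80%, and 3 of 8 Dnmt3a-ADD and 3 of 10 MII libraries were under. Genotype and class therefore cannot be told apart for the double-ADD and Dnmt3L-ADD groups except by comparing them with wild-type FGOs of the same class. The summed level of 14 oocyte marker genes was 11840 ± 848 CPM in the 18 wild-type FGOs (mean ± SD, CPM being counts scaled to a common library size), and the summed level of 12 granulosa cell markers was 179 ± 38.1 CPM, of which Nr5a2, also expressed in oocytes, gave 86.1 ± 16.8. Which animal each oocyte came from is not in the labels, so p-values measure the spread between single oocytes. The substituted alleles keep the transcript, so the counts of Dnmt3a and Dnmt3L do not check the genotype.

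The promoters of the genes were read for 3 motifs known from nuclear respiratory genes. Promoter sequence, 250 bases before to 50 bases after a start site, was given by RefSeq (GRCm38.p6) for 69 of the 82 genes. The palindrome-like consensus motif of NRF1 (both strands searched) was present in 17 of the 69 (24.6%), against 5.19% of 27025 genes. The motif of YY1 (AAGATGGC, both strands) was present in 11 (15.9%), against 3.19% of all genes, and the ETS motif bound by GABPA (CCGGAAGT, both strands) in 5 (7.25%), against 4.31%. At least 1 of the 3 motifs was found in 31 (44.9%), against 11.7% of all genes. A match is a string of letters in this window and not a measured binding site.

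The following 30-base windows (GRCm38, the mm10 assembly, read 5′ to 3′ on the strand of the gene) show the motif in capitals for genes whose values are described further on, and a capital run that reads differently from the motif is its reverse complement.
Ndufa11, NRF1, chr17:56717692-56717721, plus strand: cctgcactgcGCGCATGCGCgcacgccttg
Ndufs6, NRF1, chr13:73328479-73328508, minus strand: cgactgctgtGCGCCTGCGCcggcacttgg
Ndufs6, YY1, chr13:73328433-73328462, minus strand: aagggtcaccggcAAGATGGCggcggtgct
Uqcrc1, NRF1, chr9:108936668-108936697, plus strand: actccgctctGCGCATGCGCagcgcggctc
Atp5o, NRF1, chr16:91931602-91931631, minus strand: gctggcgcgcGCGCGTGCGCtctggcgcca
Ndufs7, YY1, chr10:80249462-80249491, plus strand: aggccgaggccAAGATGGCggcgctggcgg
Ndufa9, YY1, chr6:126849097-126849126, minus strand: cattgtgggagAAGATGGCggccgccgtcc
Cox8a, ETS, chr19:7217604-7217633, minus strand: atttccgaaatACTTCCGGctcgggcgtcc
Ndufb4, NRF1, chr16:37654371-37654400, minus strand: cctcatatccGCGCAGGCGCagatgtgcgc

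The NRF1 motif of Ndufa11 began 60 bases before the start site and that of Ndufs6 16 bases before it, in both cases as the start site is given by RefSeq. The YY1 motifs of Ndufs6, Ndufs7 and Ndufa9 lay after the start site, at positions 34, 25 and 30, in exon sequence of their own gene.

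Nearly all of the genes were expressed in oocytes. Of the 82, 78 had at least 1 count in every one of the 52 libraries, and 79 passed the count filter for the comparisons of genotype and stage. The 3 that did not pass are tissue forms of complex IV: Cox7a1 and Cox8b, the heart and skeletal muscle forms, at 0.16 and 0.00397 CPM in wild-type FGOs, and Cox7b2, a testis form, at 0.00494 CPM. The 13 protein-coding genes of the mitochondrial genome, the partners of these subunits, were listed at 0 counts in all libraries, as were all 37 genes of that chromosome, so the mitochondrial share of each complex could not be compared.

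Levels of different genes can be set side by side only per length of exon. In CPM per kilobase, the highest member of each complex in wild-type FGOs was Ndufb11 in complex I (74.0), a membrane-arm subunit encoded on the X chromosome, Sdhd in complex II (54.4), a membrane anchor, Uqcrh in complex III (44.6), the hinge protein, Cox6a1 in complex IV (58.8), and Atp5a1 in complex V (77.3), the alpha subunit of the catalytic head. The lowest were Ndufb2 in complex I (0.606), Sdhb in complex II (11.1), Uqcrc1 in complex III (1.77), Cox7b2 in complex IV (0.00912) and Atp5l in complex V (0.406). Uqcrc1 and Uqcrc2 encode the paired core proteins of complex III, and Uqcrc2 stood at 29.6 CPM per kilobase.

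**Figure D1:**
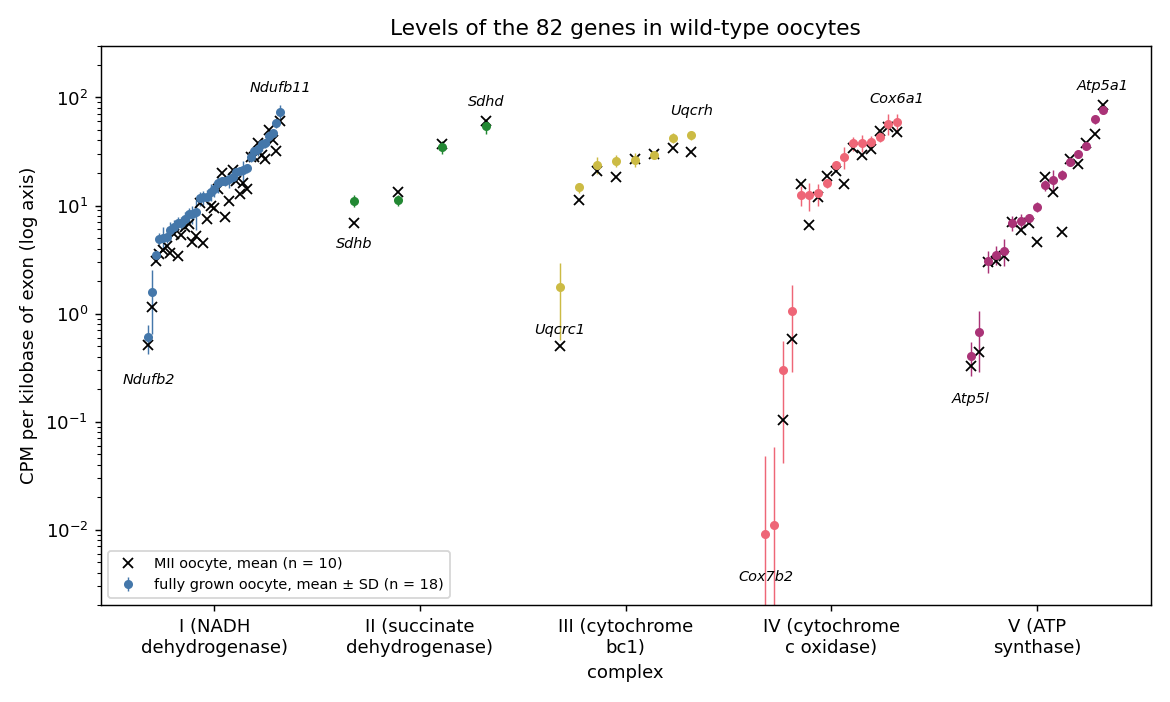
Level of each of the 82 genes in wild-type oocytes, in CPM per kilobase of exon on a log axis, by complex. Coloured points with bars are the mean ± SD of 18 FGOs and black crosses the mean of 10 MII oocytes (means of 0 are not drawn). The highest member of each complex lay between 44.6 and 77.3 CPM per kilobase in FGOs, and the lowest members of complex IV were near 0.

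Where complex IV has alternative forms of a subunit, the general form was the higher per length of exon in wild-type FGOs. Cox6a1 was at 58.8 ± 12.1 CPM per kilobase (SD, n = 18) and the heart and muscle form Cox6a2 at 12.5 ± 2.67. Cox6b1 was at 38 ± 6.67 CPM per kilobase and the testis form Cox6b2 at 12.9 ± 2.94. Cox8a was at 57.1 ± 12.6 CPM per kilobase, the testis form Cox8c at 1.06 ± 0.767 and the muscle form Cox8b at 0.011 ± 0.0467. Thus Cox6a2 and Cox6b2 were detected beside the general forms, while Cox8b and Cox7b2 were near 0. Cox7a2l, which helps to join complexes III and IV into supercomplexes, was at 42.8 ± 4.09 CPM per kilobase, beside 28.3 ± 6.71 for Cox7a2 and 0.3 ± 0.259 for the muscle form Cox7a1. Cox7b was at 37.7 ± 5.64 CPM per kilobase and Cox6c at 23.5 ± 1.96.

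The level of Ndufa4 was 11.7 ± 1.7 CPM per kilobase and that of its hypoxia-inducible relative Ndufa4l2 was 1.58 ± 0.931. The membrane ring of ATP synthase is made of a single protein, subunit c, encoded by 3 genes, of which Atp5g1 was at 3.81 ± 1.06 CPM per kilobase, Atp5g2 at 3.5 ± 0.687 and Atp5g3 at 3.06 ± 0.704. Of the genes outside the rule, Cox4i1, the general form of subunit 4, was at 55.8 ± 5.02 CPM and the lung form Cox4i2 at 1.91 ± 1.13 CPM, not scaled to length. The length used is that of all annotated exons of a gene (6443 bases for Atp5l and 5628 for Ndufb2), so a gene with long exons that oocytes do not use is low on this scale. Near-identical copies elsewhere cover 86.8% of the mRNA of Atp5l, 69.0% of Atp5g1, 100% of Atp5g2 and 0% of Atp5g3. Where such copies exist, reads could be lost or split in counting.

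From FGO to MII, most of the genes fell. In the fit of all 52 libraries (quasi-likelihood test of edgeR, called where the p adjusted by Benjamini-Hochberg over all genes tested was under 0.05, whatever the fold), 56 of 79 (70.9%) differed between wild-type MII oocytes and wild-type FGOs, 45 lower and 11 higher in MII, beside 39.1% of all 15784 genes tested (22.6% lower and 16.5% higher). The median log2 fold change of the genes was −0.28, and that of all genes tested was −0.05. Past a 2-fold change were 6 genes, all lower, beside 9.2% of all genes (9% lower). With library totals in place of TMM factors (a scaling that sets aside a few very abundant genes) the split was 51 lower and 5 higher. Levels are shares of the RNA that was captured and amplified, and the reverse transcription starts at poly(A) tails, so less RNA and shorter tails cannot be told apart. MII oocytes came from oviducts after superovulation and FGOs from punctured ovaries. Stage and the way of collection therefore cannot be told apart in this comparison.

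Complex I had the most genes that fell, 26 of 37 lower and 4 higher, with a median log2 fold change of −0.35. In complex III, 6 of 8 fell and none rose (median −0.36), with Uqcrc2 at 0.03 and not called. Complex IV had 6 lower and 3 higher of 13 tested (median −0.16), complex V 6 lower and 3 higher of 17 (median −0.20), and complex II 1 lower and 1 higher of 4 (median 0.12). The summed level of the complex I genes was 938 ± 35.9 CPM in wild-type FGOs (lowest 872, median 939, highest 1013) and 768 ± 24.8 CPM in MII oocytes (lowest 741, median 761, highest 816). The FGOs and MII oocytes did not overlap in that sum. For complex V the sums were 779 ± 29 CPM in FGOs and 744 ± 25.7 CPM in MII oocytes, and those ranges overlapped.

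**Figure D2:**
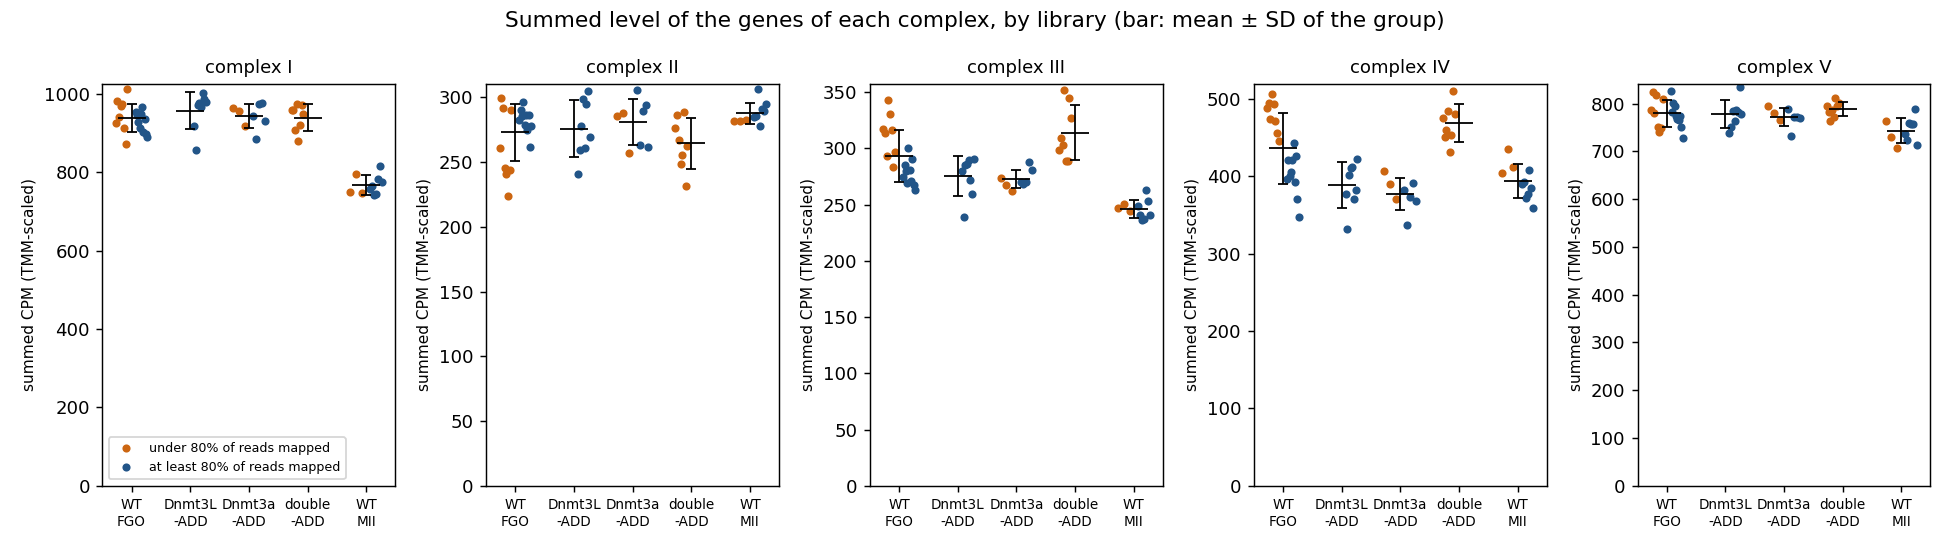
Summed level of the genes of each complex in every oocyte library, in TMM-scaled CPM, with 1 panel for each complex and the mean ± SD of each group as a black bar. Orange points are libraries with under 80% of reads mapped and blue points those with at least 80%. Complex I was lower in all 10 MII oocytes than in any wild-type FGO, and in complex IV the wild-type FGOs with under 80% of reads mapped (mean 479 CPM) lay above those with at least 80% (mean 403 CPM).

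Atp5o encodes the oligomycin sensitivity-conferring protein, which links the catalytic head of ATP synthase to its peripheral stalk. Its level was 36.7, 44.1 and 52.5 CPM (lowest, median and highest) in the 18 wild-type FGOs and 10.2, 11.7 and 16.8 CPM in the 10 MII oocytes. The groups did not overlap, and the log2 fold change was −1.76 (SE 0.0745, edgeR adjusted p = 1.67e-26), a level in MII of 0.295 of that in FGOs. The annotated gene (chromosome 16, 91684398 to 91931687, minus strand) shares 44.0% of its exon length with other genes (Donson, D430001F17Rik and Gm15976), and 76.7% of its mRNA has a near-identical copy elsewhere in the genome, Gm5436, which was at 0.435 CPM. Atp5j encodes coupling factor 6, a further stalk subunit. It was at 24.6, 29.9 and 37.7 CPM in FGOs and at 11.6, 13.5 and 19.3 CPM in MII, again without overlap, with a log2 fold change of −1.09 (SE 0.0744, adjusted p = 8.96e-18). Both genes lie on chromosome 16, Atp5j at 84827866 to 84835625.

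Within complex I, the largest fall was in Ndufa11 (chromosome 17, 56717762 to 56724248, plus strand), an accessory subunit of the membrane arm. Its level was 25.5, 31.6 and 39.5 CPM in FGOs and 7.47, 12.5 and 14.1 CPM in MII oocytes. Every MII oocyte was below every FGO, with a log2 fold change of −1.42 (SE 0.0897, adjusted p = 4.15e-19). Ndufs7, an iron-sulfur subunit near the ubiquinone site, was at 25.5, 28 and 36.8 CPM in FGOs and at 8.77, 13.1 and 19 CPM in MII (log2 fold change −1.10, SE 0.086, adjusted p = 1.41e-15). Ndufa12, an accessory subunit of the matrix arm, was at 6.68, 9.24 and 11 CPM and at 2.36, 4.57 and 6.07 CPM (log2 fold change −1.01, SE 0.11, adjusted p = 1.27e-10). Of the mRNA of Ndufa12, 71% has near-identical copies, and the copy Gm15920 was itself at 1.48 CPM in wild-type FGOs beside 9.13 CPM for Ndufa12. Ndufv1, the flavoprotein that takes electrons from NADH, fell by 0.65 on the log2 scale, Ndufa9 by 0.72 and Ndufa2 by 0.86, and none of these 3 genes overlapped between the stages. Ndufs1, the large iron-sulfur subunit beside Ndufv1, changed less, with a log2 fold change of −0.18 (adjusted p = 0.0228).

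Uqcrc1 (chromosome 9, 108936633 to 108949623, plus strand) had the lowest log2 fold change of all 79 genes, −1.80 (SE 0.303, adjusted p = 4.94e-06). Its level was 2.67, 6.14 and 20.9 CPM in FGOs and 1.19, 2.21 and 2.54 CPM in MII oocytes. The groups did not overlap, and wild-type FGOs varied widely among themselves (7.3 ± 4.97 CPM). Uqcrh fell by 0.51 on the log2 scale without overlap, and Uqcrfs1, the Rieske iron-sulfur protein, had a log2 fold change of −0.20 (adjusted p = 0.0363). The subunits of complex II differed in direction. Sdhb, the iron-sulfur subunit, was at 20.4, 24.8 and 31.4 CPM in FGOs and 12, 15.8 and 19.6 CPM in MII (log2 fold change −0.68, adjusted p = 1.87e-11), without overlap. The flavoprotein Sdha was at 145 ± 19.8 CPM and 154 ± 11.9 CPM and was not called (log2 fold change 0.09, adjusted p = 0.247). The membrane anchor Sdhc rose (0.23, adjusted p = 0.00208), and the other anchor Sdhd was not called (0.16, adjusted p = 0.0612).

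In complex IV the small subunits Cox7c (log2 fold change −0.92) and Cox7a2 (−0.84) fell, and Cox6a1 (−0.29), Cox6b1 (−0.38) and Cox5b (−0.22) fell less. Cox5a, the partner of Cox5b on the matrix side, rose from 33.8 ± 3.44 to 39.5 ± 4.15 CPM (0.22, SE 0.0577, adjusted p = 0.00192). The muscle form Cox6a2 (0.33, adjusted p = 0.0382) and Cox7a2l (0.19, adjusted p = 0.00435) also rose. The forms Cox8a (−0.09), Cox7b (−0.16) and Cox6b2 (−0.10) were not called, nor were Ndufa4 (−0.15), Ndufa4l2 (−0.45) and the 3 genes of subunit c (−0.17, −0.20 and −0.04 for Atp5g1, Atp5g2 and Atp5g3).

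The lowest p among the 11 genes that rose was that of Ndufa10, an accessory subunit of complex I. Its level was 51.7, 56.1 and 61.1 CPM in FGOs and 59.1, 67 and 72.1 CPM in MII, with a log2 fold change of 0.25 (SE 0.0359, adjusted p = 2.19e-07). Atp5j2, a membrane subunit of ATP synthase, rose by the same amount (0.25, SE 0.0603, adjusted p = 0.0011). The alpha and beta subunits of the catalytic head rose slightly, Atp5a1 by 0.12 (adjusted p = 0.03) and Atp5b by 0.10 (adjusted p = 0.0482), both of which were not called with library totals as the scaling. Within complex V, Atp5a1 and Atp5b did not fall while Atp5o and Atp5j fell to 0.295 and 0.47 of their level. Atp5o and Atp5j do not stand for the stalk as a whole, and of the 17 genes of complex V 6 were lower and 3 higher.

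Of the 79 genes, 11 were lower in MII without any overlap between the 10 MII oocytes and the 18 wild-type FGOs (Ndufa2, Ndufa9, Ndufa11, Ndufa12, Ndufs7, Ndufv1, Sdhb, Uqcrc1, Uqcrh, Atp5j and Atp5o), beside 1.77% of all genes tested, and none was higher without overlap, beside 0.583%. In both classes of mapped reads taken alone, 27 of 79 genes were called in the same direction, 26 lower and 1 (Ndufa10) higher, beside 10.8% of all genes tested in both. Atp5o was at −1.67 among libraries with at least 80% of reads mapped and at −1.92 among those under 80%, and Ndufa11 at −1.40 and −1.38. Uqcrc1 was at −1.42 and −2.18 and Cox7c at −0.57 and −1.32. Most lists of somatic cell markers were lower in MII. The summed granulosa markers were at 128 to 269 CPM in wild-type FGOs and 113 to 133 CPM in MII, with 9 of 12 lower. Theca markers were at 7.10 to 65.3 CPM and 0.622 to 8.90 CPM. Stroma and smooth muscle markers were at 9.0 ± 6.12 CPM in FGOs and 1.87 ± 0.642 CPM in MII. Endothelium and blood markers went the other way, at 79.3 ± 11.9 CPM and 88.7 ± 6.69 CPM, with 0 of 2 tested called. Oocyte markers were at 11840 ± 848 CPM and 10058 ± 207 CPM, with 5 of 14 lower and 1 higher. Of the granulosa markers, Amh was at 0 in all MII oocytes, and Inha was at 9.8 ± 5.57 CPM in FGOs and 0.141 ± 0.31 CPM in MII. Their part in the fall of the genes was not tested.

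Genes related to the complexes by function were counted from fixed lists. In MII against FGO, edgeR called 51.2% of assembly factors, 58.3% of regulators, 50% of tricarboxylic acid cycle genes and 30.8% of carrier genes. Of all genes tested, 39.1% were called (22.6% lower and 16.5% higher). Of 43 assembly factors tested, 19 were lower and 3 higher in MII (median −0.25). Cox17, the copper chaperone of complex IV, was the lowest at −3.04 (SE 0.11, adjusted p = 3.78e-29), followed by Pet100 at −1.82 and Uqcc2 at −1.33, which serve the assembly of complexes IV and III. Cox10, which makes the haem of complex IV, was higher (0.39, adjusted p = 2.57e-07). Of 12 regulators of nuclear respiratory genes, 4 were higher and 3 lower: Nrf1, whose protein binds the palindrome-like motif shown above, rose (0.27, adjusted p = 3.31e-06), while Gabpa (−2.51, adjusted p = 1.93e-05) and Yy1 (−0.55, adjusted p = 0.00578) fell. Gabpa and Atp5j are neighbours that share exon sequence (12.7% of the exon length of Atp5j). Of 14 genes of the tricarboxylic acid cycle, 4 were higher and 3 lower, with Idh2 the lowest (−2.86, adjusted p = 4.6e-05). Of 13 genes of the mobile carriers, ubiquinone synthesis and cytochrome c, 4 were lower and none higher, among them Cycs, somatic cytochrome c (−0.24, adjusted p = 0.0144).

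Other housekeeping lists gave a measure of how the set compares. Of 84 cytosolic ribosomal protein genes, 70 were lower and 2 higher in MII (median −0.70), of 76 mitochondrial ribosomal protein genes 18 were lower and 12 higher (median −0.04), and of 36 proteasome genes 14 were lower and 9 higher (median −0.09). The median of the oxidative phosphorylation genes (−0.28) lay between these. The shares called were 85.7%, 39.5% and 63.9% in the same order, beside 39.1% of all genes tested (22.6% lower and 16.5% higher). Among the genes with a promoter sequence, the NRF1 motif was present in 9 of 39 that fell in MII, 2 of 7 that rose and 6 of 20 that were not called.

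**Figure D3:**
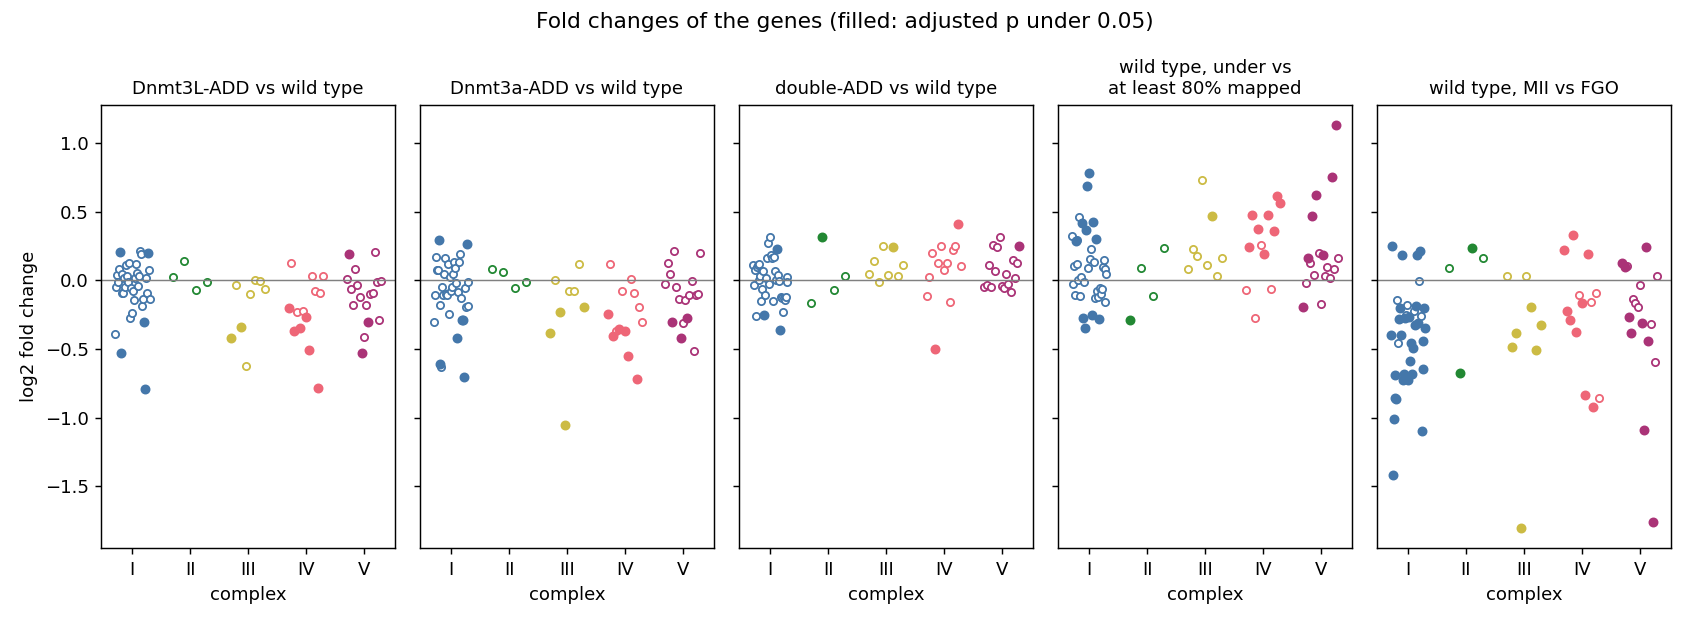
Log2 fold change of each gene tested, by complex, in the 5 comparisons, with filled points for genes with an adjusted p under 0.05. Most points lie below 0 in MII against FGO (62 of 79), and complex IV lies mostly below 0 in both single mutants and mostly above 0 between the wild-type classes.

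In Dnmt3L-ADD FGOs, 16 of 79 genes (20.3%) differed from wild-type FGOs, 13 lower and 3 higher, beside 6.13% of all 15726 genes tested (3.06% lower and 3.07% higher). The median log2 fold change was −0.06, and −0.03 for all genes. None of the genes was past a 2-fold change, beside 0.655% of all genes, and none was without overlap between the groups, beside 0.0572% lower and 0.0318% higher of all genes. Of the genes that fell, 6 were in complex IV (Cox5a, Cox6a1, Cox6b1, Cox6c, Cox7a2 and Cox7c), where the median was −0.22. In complex I, 3 were lower and 2 higher of 37, in complex III 2 of 8 were lower, in complex V 2 were lower and 1 higher of 17, and no complex II gene was called.

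Ndufs6 (chromosome 13, 73319838 to 73328542, minus strand) encodes a zinc-binding accessory subunit of complex I. Its level was 5.24, 6.46 and 8.65 CPM (lowest, median and highest) in wild-type FGOs and 2.28, 3.88 and 5.31 CPM in Dnmt3L-ADD FGOs, which overlapped only at the ends of the ranges. The log2 fold change was −0.79 (SE 0.138, adjusted p = 0.0004). Cox7c (chromosome 13, 86044816 to 86046904, minus strand) is one of the smallest subunits of complex IV. It was at 6, 14.3 and 23.3 CPM in wild-type FGOs and at 6.26, 8.33 and 10.3 CPM in Dnmt3L-ADD FGOs, with a log2 fold change of −0.78 (SE 0.146, adjusted p = 0.000813). The ranges overlapped, and the 10 wild-type FGOs with at least 80% of reads mapped (6, 11.9 and 14.4 CPM) lay lower than the 8 under 80% (14.4, 16.6 and 23.3 CPM). Cox6c, a further small subunit, was at 74.3, 84.8 and 98 CPM in wild type and 59.9, 70.8 and 77.3 CPM in Dnmt3L-ADD (−0.27, SE 0.0538, adjusted p = 0.00189).

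Cox7a2 had a log2 fold change of −0.51 and Uqcr10, a small subunit of complex III, of −0.42 in the same comparison. The 3 genes that rose were Atp5b (0.19, SE 0.0462, adjusted p = 0.00951), Ndufv1 (0.20, SE 0.0552, adjusted p = 0.0253) and Ndufa2 (0.20, SE 0.06, adjusted p = 0.034), and the calls of Ndufv1 and Ndufa2 were lost when any of 5 of the 8 Dnmt3L-ADD libraries was left out. In complex II, Sdhb was at 0.14 and Sdha at 0.02. All Dnmt3L-ADD libraries have at least 80% of reads mapped. Against the 10 wild-type FGOs of that class, 14 genes were called (8 lower and 6 higher), beside 6.85% of all genes tested there, and against the other 8 wild-type FGOs 27 were called (22 lower and 5 higher), beside 22%.

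The genes called in the same direction against both classes of wild-type FGOs were Ndufs6 (−0.82 against at least 80% and −0.75 against under 80%), Cox7c (−0.48 and −1.09), Atp5j, Cox6c and Uqcr10, all lower, and Atp5b, higher. These are 6 of 79 genes, beside 2.26% of all genes tested against both classes, with the same Dnmt3L-ADD libraries in each. Uqcrfs1 was the only gene called in opposite directions, 0.23 (adjusted p = 0.0309) against wild-type FGOs with at least 80% of reads mapped and −0.23 (adjusted p = 0.0114) against those under 80%.

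In Dnmt3a-ADD FGOs, 20 of 79 genes (25.3%) differed from wild type, 18 lower and 2 higher, beside 15.7% of all genes tested (7.61% lower and 8.06% higher). The median was −0.09, and −0.03 for all genes. In complex IV 6 of 13 were lower (median −0.31). In complex III 4 of 8 were lower, in complex I 5 were lower and 2 higher of 37, in complex V 3 of 17 were lower, and again no complex II gene was called. The comparisons of the 3 mutant genotypes share the same 18 wild-type FGOs, so their values are given side by side and are not independent.

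Cox6c (chromosome 15, 35925886 to 35938246, minus strand) had the lowest p. Its level was 57.2, 63.2 and 73.5 CPM in Dnmt3a-ADD FGOs, below every wild-type FGO (74.3 CPM or more), with a log2 fold change of −0.37 (SE 0.0541, adjusted p = 7.18e-06). Of its mRNA, 45.9% has near-identical copies elsewhere. Ndufs6 was at 2.88, 4.41 and 4.87 CPM, also below every wild-type FGO, with a log2 fold change of −0.71 (SE 0.136, adjusted p = 0.000381). These were the only 2 of the genes without overlap, beside 0.165% of all genes tested that were lower and 0.146% that were higher without overlap. Cox7a2 was at 15.6, 17.9 and 20.7 CPM, and at 16.9, 25 and 39.4 CPM in wild type (−0.56, SE 0.11, adjusted p = 0.000508). Cox7c was at 6.76, 8.76 and 10.5 CPM (−0.72, SE 0.145, adjusted p = 0.000647).

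The 2 genes that rose were Ndufa2 (0.30, SE 0.0595, adjusted p = 0.000635) and Ndufv1 (0.26, SE 0.0549, adjusted p = 0.000926). Ndufv1 was at 45.2, 56.6 and 66.1 CPM in wild-type FGOs and 61, 66.8 and 73.5 CPM in Dnmt3a-ADD FGOs. Uqcrc1 was the only gene of the set past a 2-fold change between genotypes, beside 2.05% of all genes (1.76% lower). It was at 2.67, 6.14 and 20.9 CPM in wild type and 1.14, 2.81 and 7.68 CPM in Dnmt3a-ADD, which overlap widely, with a log2 fold change of −1.06 (SE 0.335, adjusted p = 0.0263). Taken within the classes of mapped reads Uqcrc1 was not called, at −0.40 (adjusted p = 0.427) among libraries with at least 80% and −2.11 (adjusted p = 0.0542) under 80%. In both classes alone, the genes called were Cox6c (−0.32 and −0.42), Cox7a2 (−0.37 and −0.73) and Cox7c (−0.47 and −0.94), each with at least 80% given before under 80%. These are 3 of 79 genes, beside 1.56% of all genes tested in both classes.

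**Figure D4:**
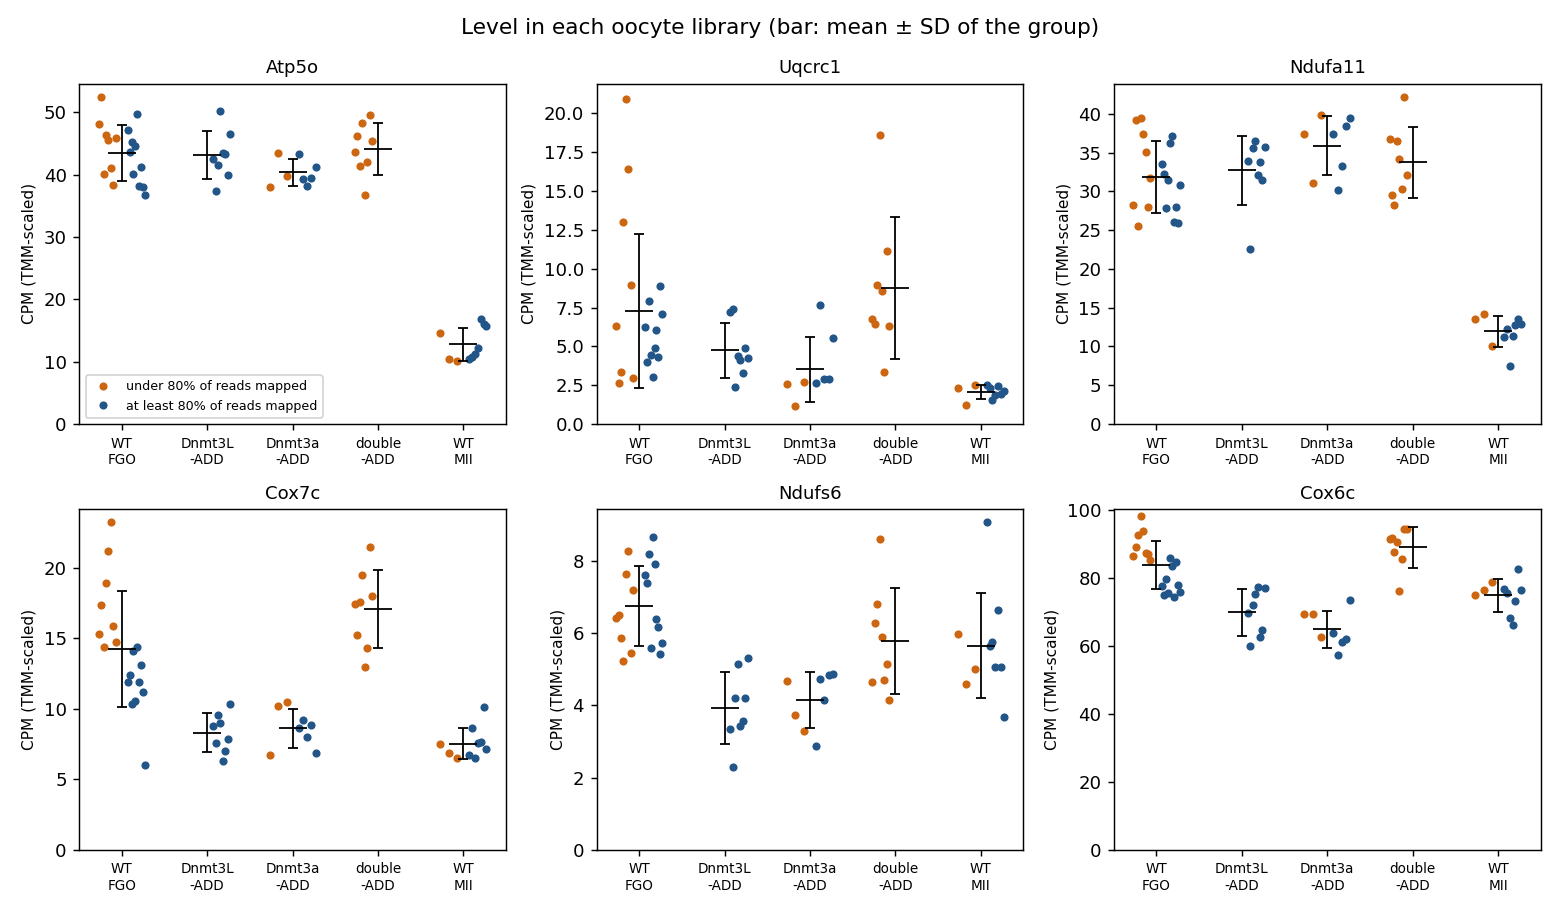
Level of Atp5o, Uqcrc1, Ndufa11, Cox7c, Ndufs6 and Cox6c in every oocyte library, in TMM-scaled CPM, with the mean ± SD of each group as a black bar and the classes of mapped reads in orange (under 80%) and blue (at least 80%). Atp5o and Ndufa11 differ between FGO and MII without overlap, and Cox7c differs between the wild-type classes (means 17.6 and 11.6 CPM) as well as in the single mutants (means 8.3 and 8.63 CPM).

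In a contrast between Dnmt3a-ADD and Dnmt3L-ADD FGOs in the same fit, chosen after the data were seen, edgeR called 0 of 79 genes, with 4 at an unadjusted p under 0.05, beside 0.0127% of all genes called. This does not show that the genotypes act alike on these genes.

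Markers moved in the single mutants as well. The summed granulosa markers were at 118 to 161 CPM in Dnmt3L-ADD and 122 to 206 CPM in Dnmt3a-ADD FGOs, against 128 to 269 CPM in wild type, with 3 and 4 of 12 lower. The summed oocyte markers were at 10485 ± 825 and 9784 ± 868 CPM, against 11840 ± 848 CPM, with 6 and 7 of 14 lower. The summed theca markers were at 10.2 ± 7.42 and 6.74 ± 5.37 CPM, against 17.5 ± 13.7 CPM in wild type, the stroma and smooth muscle markers at 7.09 ± 2.91 and 15.9 ± 22.3 CPM, against 9.0 ± 6.12 CPM, and the endothelium and blood markers at 87.2 ± 7.17 and 96.5 ± 17.9 CPM, against 79.3 ± 11.9 CPM. Of 84 ribosomal protein genes, 15 were lower and 4 higher in Dnmt3L-ADD and 17 lower and 6 higher in Dnmt3a-ADD. Of all genes tested, 6.13% were called in Dnmt3L-ADD and 15.7% in Dnmt3a-ADD. None of the 43 assembly factors, 12 regulators, 13 carrier genes or 14 tricarboxylic acid cycle genes was called by edgeR in Dnmt3L-ADD, with 8, 3, 2 and 4 of them at an unadjusted p under 0.05. In Dnmt3a-ADD 4 assembly factors were higher and 3 lower, and 2 regulators were higher and 1 lower. Of the carrier genes 1 was higher and 2 lower there, and of the tricarboxylic acid cycle genes 3 were higher and 2 lower, beside 15.7% of all genes called. The part of the markers in the values of the genes was not tested.

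In double-ADD FGOs, 8 of 79 genes (10.1%) differed from wild-type FGOs, 5 higher and 3 lower, beside 12.2% of all genes tested (5.51% higher and 6.74% lower). The median log2 fold change was 0.03, and −0.01 for all genes. None was past a 2-fold change, beside 1.65% of all genes, or without overlap, beside 0.134% lower and 0.0445% higher of all genes. Sdhb had the lowest p (chromosome 4, 140961203 to 140979193, plus strand). Its level was 20.4, 24.8 and 31.4 CPM in wild type and 27.8, 31.3 and 34 CPM in double-ADD FGOs, with a log2 fold change of 0.32 (SE 0.0643, adjusted p = 0.00151). Cox8a was higher (0.41, SE 0.103, adjusted p = 0.00888), as were Atp5sl (0.25, adjusted p = 0.0366), Ndufc2 (0.23, adjusted p = 0.0367) and Uqcrfs1 (0.24, adjusted p = 0.0475). Atp5sl, also known as DMAC2, serves the assembly of complex I. Ndufs3, a core subunit of the matrix arm (−0.36, SE 0.0883, adjusted p = 0.00735), the muscle form Cox6a2 (−0.50, SE 0.14, adjusted p = 0.017) and Ndufa8 (−0.25, adjusted p = 0.0441) were lower. The call of Atp5sl was lost when any of 10 of the 26 libraries compared was left out, and that of Ndufa8 for any of 16.

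The count in double-ADD FGOs differed with the wild-type FGOs compared. All double-ADD libraries have under 80% of reads mapped. Against the 8 wild-type FGOs of the same class 0 genes were called by edgeR (4 at an unadjusted p under 0.05), beside 1.43% of all genes tested there, and against the 10 wild-type FGOs with at least 80% 36 were called, 26 higher and 10 lower, beside 37.8%. Cox8a, a small subunit of complex IV, had levels of 35.2, 41.3 and 48.7 CPM in double-ADD FGOs, 30.6, 38.5 and 42.5 CPM in wild-type FGOs under 80%, and 22.7, 25.9 and 30.8 CPM in those with at least 80%. Its log2 fold change was 0.13 (adjusted p = 0.635) against the same class. Sdhb stood at 0.28 (adjusted p = 0.0848) against the same class and at 0.36 (adjusted p = 7.75e-06) against the other. Summed granulosa markers were at 126 to 156 CPM in double-ADD FGOs and theca markers at 1.48 to 3.27 CPM, with 7 of 12 and 3 of 3 tested lower. The summed stroma and smooth muscle markers were at 1.79 ± 0.841 CPM, against 9.0 ± 6.12 CPM in wild type, and the endothelium and blood markers at 64.1 ± 8.54 CPM, against 79.3 ± 11.9 CPM, with 5 of 6 and 2 of 2 tested lower. The summed oocyte markers were at 13219 ± 391 CPM, against 11840 ± 848 CPM, with 3 of 14 higher and none lower. Their part in these values was not tested.

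In contrasts chosen after the data were seen, 22 genes were higher and 7 lower in double-ADD than in Dnmt3a-ADD FGOs, beside 30.9% of all genes called, and 21 were higher and 3 lower than in Dnmt3L-ADD FGOs, beside 24.2%. Cox6c was higher by 0.45 and 0.34 on the log2 scale, Cox7c by 0.97 and 1.03, and Ndufv1 lower, at −0.39 and −0.32, with double-ADD and Dnmt3L-ADD libraries in different classes of mapped reads throughout. The contrast that asks whether both mutations together differ from the sum of their single effects was called for 37 of 79 genes, 29 above and 8 below the sum, beside 35.6% of all genes. With the class of mapped reads as a covariate it was called for 20, 15 above and 5 below, beside 14.2%. Cox6c (0.71, SE 0.0827, adjusted p = 5.24e-08) and Cox7c (1.75, SE 0.221, adjusted p = 2.64e-07) were furthest above by p without the covariate, and at 0.55 and 1.21 with it.

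The classes of wild-type FGOs differed from each other in these genes. Between the 8 FGOs under 80% and the 10 with at least 80% of reads mapped, 28 of 78 genes (35.9%) were called, 22 higher and 6 lower under 80%, beside 25.4% of all 14664 genes tested (14.2% higher and 11.2% lower). The median was 0.12, and 0.04 for all genes. Complex IV had 8 of 12 higher and none lower (median 0.31), and its summed level was 446 to 506 CPM under 80% and 347 to 443 CPM with at least 80%, without overlap. Complex V had 6 higher and 1 lower of 17, complex I 7 higher and 4 lower of 37, complex III 1 higher of 8 and complex II 1 lower of 4. This is a difference between sets of libraries of the same genotype and stage.

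Cox8a (chromosome 19, 7215158 to 7217616, minus strand) differed most clearly by p, with a log2 fold change of 0.56 (SE 0.0728, adjusted p = 3.51e-05), at the levels given above. Ndufb4, a membrane-arm subunit of complex I, was at 10.3, 12.5 and 16.9 CPM under 80% and 6.3, 7.51 and 9.36 CPM with at least 80%, without overlap (0.78, SE 0.109, adjusted p = 6.35e-05). Uqcrfs1 was at 38.3 ± 2.59 and 27.8 ± 2.97 CPM (0.47, adjusted p = 0.00013), and Dnmt3L-ADD FGOs (32.7 ± 2.88 CPM) lay between them. Ndufb4, Ndufb11, Cox6a1, Cox7b and Cox7c did not overlap between the classes, beside 1.1% of all genes higher without overlap, and none was lower without overlap, beside 1.29%. The only change past 2-fold, beside 3.72% of all genes, was that of Atp5s, a gene of low level, at 1.96 ± 0.615 and 0.9 ± 0.543 CPM (1.13, SE 0.346, adjusted p = 0.0212). The lowest p among genes lower under 80% were those of Sdha (−0.29, adjusted p = 0.00405), Ndufb10 (−0.35, adjusted p = 0.00887) and Atp5a1 (−0.19, adjusted p = 0.0099).

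The fold changes varied with the length of the genes. Across the genes, the Spearman correlation of the log2 fold change with coding length was 0.32 in Dnmt3L-ADD and 0.36 in Dnmt3a-ADD FGOs (n = 78), −0.28 in double-ADD FGOs, −0.34 between the wild-type classes (n = 77) and 0.10 in MII against FGO. Over all genes with a coding length, the same values were 0.09, 0.13, −0.13, −0.16 and 0.05. With mRNA length the values in the same order were 0.35, 0.34, −0.23, −0.26 and 0.25, and over all genes 0.03, 0.07, −0.04, −0.07 and 0.03. With the GC percent of the mRNA the value in MII against FGO was −0.23, and 0.05 over all genes. In the other comparisons the GC values of the genes ran from −0.004 to 0.07. These are descriptions across genes of the same libraries, which are not independent replicates. The shorter genes of the set thus tended to be lower in the single mutants and higher in double-ADD FGOs and in wild-type FGOs under 80%.

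Near-identical copies (at least 95% identity over at least 100 bases) exist for 25 of the 81 genes with a coding transcript, and 13 of these have over 50% of their mRNA in such copies, so that reads could be lost or split in counting. Some of these matches are other genes and not copies of a parent gene. Haus1 matches 5.22% of the Atp5a1 mRNA, and Smim27 matches 39.0% of that of Ndufb6. Of 41 matching genes present in the count tables, 40 were under 10% of the level of the gene that they match. Exon sequence is shared with another annotated gene by 25 of the 82, over 20% of the exon length in Atp5o, Ndufb6 and Ndufa13, and since the strand setting of the counting is not given in the sources used here, reads of overlapping genes cannot be told apart.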

How the data were processed

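Single oocytes were amplified with the SMART-Seq HT kit and sequenced in pairs, and the authors used STAR for alignment to mm10 and counted reads per gene (the methods name featureCounts and HTSeq), without correction for depth. The authors deposited raw counts for 52 oocyte libraries with 51734 genes each. The annotation release, strand setting and treatment of multi-mapping reads are not given in the sources used here. Tables of allelic counts for 3 embryo samples were not used here, nor were the 8 further columns in them.

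The main test was the quasi-likelihood test of edgeR 4.0.16 under R 4.3.3, on TMM-scaled counts of genes kept by filterByExpr (minimum count 10). A gene was called where its p, adjusted by Benjamini-Hochberg over all genes tested, was under 0.05. The 3 mutant genotypes were compared with wild type in 1 fit of 42 FGO libraries (15726 genes, biological coefficient of variation 25.2%), MII oocytes in a fit of all 52 libraries (15784 genes, 23.8%), and the classes of mapped reads in a fit of the 18 wild-type FGOs (14664 genes, 23.2%). Levels are CPM scaled by TMM factors of 0.950 to 1.10. Total counts ran from 7832458 to 23739871, and the share of counting error in the spread between oocytes was not computed for single genes. DESeq2 1.42.0, other scalings, filters, library sets and leaving out each library served as alternatives. The tests were tried on simulated data with known changes. Libraries of the same group differed by more than counting noise in every pair (chi-square per degree of freedom of at least 5.39). Gene coordinates and exon lengths are those deposited with the counts. Coding and mRNA lengths come from GENCODE vM21, and copies were found in its transcripts with BLAST+ 2.17.0. Figures were drawn with matplotlib 3.10.9.

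Named genes were, for each comparison, the 3 called with the lowest p in each direction, those past a 2-fold change, paralogs and tissue forms, catalytic and core subunits, the highest and lowest per-length member of each complex, and genes called in opposite directions against the classes of wild-type FGOs. Further members are named where a count of genes is spelled out. The members and all lists were chosen with earlier results of these data known.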

Additional observations from a re-analysis of the deposited data

Results flagged for a closer look

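In groups of 8 or 10 oocytes, 9 of 132 groups tested (28 genes and the 5 complex sums in 4 groups each) held 1 library that stood apart from the others by Dixon's criterion, where chance alone gives about 1 in 20. Dnmt3a-ADD replicate 4 was the lowest of its group in Cox8a (20.4 CPM, next 26.6), in Ndufa8 (34.2 CPM, next 41.8) and in the complex V sum (731 CPM, next 765). MII replicate 8 was the highest in Cox7a2 (20.6 CPM, next 15.9) and Ndufs3 (17.9 CPM, next 15.2) and the lowest in Ndufa8 (36.5 CPM, next 41.1). Cox5a was highest in double-ADD replicate 1 (35.8 CPM, next 31.9), Ndufb4 was highest in double-ADD replicate 7 (21.4 CPM, next 13.2), and Ndufa11 was lowest in Dnmt3L-ADD replicate 2 (22.6 CPM, next 31.5).

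The contrast of the 4 genotypes that asks whether both mutations together differ from the sum of their single effects was called for 37 of 79 genes, beside 35.6% of all genes tested, and for 20 with the class of mapped reads as a covariate, beside 14.2%. All double-ADD libraries are of one class and all Dnmt3L-ADD libraries of the other, so genotype and class cannot be told apart in it.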

How the results depend on the processing

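The counts of genes called (main values 16 in Dnmt3L-ADD, 20 in Dnmt3a-ADD, 8 in double-ADD, 56 in MII and 28 between the wild-type classes) were within 1.5 times of these with edgeR's exact test, DESeq2, RLE size factors and library totals. With a minimum fold change of 2 they were 0, 1, 0, 6 and 1. For Dnmt3L-ADD the count was 27 against wild-type FGOs under 80% of reads mapped, and for Dnmt3a-ADD 11 among libraries under 80%. For MII it was 37 among libraries with at least 80%. For double-ADD it was 4 without a filter on low counts, 4 with only the groups compared in the fit, 1 with the class of mapped reads as a covariate, 36 against wild-type FGOs with at least 80% and 0 against those under 80%. Replicate numbers did not pair the samples (correlation of deviations over 80 pairs, median −0.026, 15 above 0.1). With the replicate number as a block the counts were 25, 31 and 0 (4 at an unadjusted edgeR p under 0.05) in Dnmt3L-ADD, Dnmt3a-ADD and double-ADD and 59 in MII. Among the FGOs, replicates 9 to 18 exist in wild type only. The block therefore reduced the genotype comparisons to wild-type replicates 1 to 8, which are the FGOs under 80%, and is not a separate setting from that class. Leaving out 1 library gave 12 to 17 in Dnmt3L-ADD, 17 to 24 in Dnmt3a-ADD, 4 to 12 in double-ADD (4 without wild-type replicates 11 or 12 or double-ADD replicates 4 or 7), 51 to 58 in MII and 25 to 31 between the wild-type classes. Among values of the genes with the lowest p in each direction of each comparison, all called with the main settings, 231 kept their direction and call under the alternatives, 35 lost the call and none reversed. Uqcrfs1 in Dnmt3L-ADD, not among them, was called in opposite directions against the classes of wild-type FGOs (0.23 and −0.23). Why the counts and calls differed between settings was not tested. Cox7a1, Cox7b2 and Cox8b were too low to pass the count filter. Among the genes tested, low counts per library were also found for Cox8c (0 to 20), Atp5s (2 to 43) and Ndufa4l2 (3 to 88).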
